A study of Mus musculus with 6 samples.

Results

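Pecam1, Cdh5, Cldn5, Tie1, Tek, Emcn, Eng, Esam, Erg and Sox17 are expressed by endothelial cells of nearly every vessel type, and their level in a bulk sample is used as a measure of how much vessel it holds. The 10 genes were chosen by name as a list of endothelial identity genes, with earlier results of these data known, and all 10 were among the 17068 genes of the filtered count table. They were measured by RNA-Seq of the lateral cortex of 6 female c57/bl6 mouse embryos at embryonic day (E)12.5. The 4 controls lacked Cre and carried floxed Foxp1, as Foxp1 fl/+ in controls 1, 2 and 4 and as Foxp1 fl/fl in control 3. The other 2 embryos were Foxp1 fl/fl;Emx1Cre, labelled Foxp1cKO. Emx1Cre acts in dorsal telencephalic progenitors and the cells that descend from them, and endothelial cells are not among these, so they are expected to keep their floxed alleles. The comparison asks whether the cortex of embryos that lose Foxp1 in its progenitors holds more or less endothelial RNA at this stage.

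Vessels enter the cortex from the network on its surface, and their cells are held together by adhesion proteins at the cell border, kept quiescent or mobilized by receptors for angiopoietins, TGF-beta family ligands and Vegf, and given their identity by ETS and SoxF transcription factors. Most genes of endothelial identity carry ETS motifs in their regulatory sequence. Sprouts are led by tip cells, which have a gene programme of their own and which read the Vegf made by hypoxic tissue.

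The lateral cortex libraries held 50076008 to 78346979 counts on genes. Foxp1 itself had 67.7 ± 9.18 CPM (counts scaled to a common library size with TMM factors, SD, n = 4) in the controls and 80.0 ± 4.52 CPM (SD, n = 2) in the libraries labelled Foxp1cKO, a log2 fold change of 0.24 (SE 0.129, edgeR adjusted p = 0.468). The Foxp1 count was not lower in these libraries, and they are named by their label throughout. The table holds 1 count for the whole gene, so reads on the floxed exons were not analysed here, and this count does not show whether they were deleted. Cortical markers were high in each library: 10 radial glia genes summed to 2558 to 3443 CPM and 8 neuronal genes to 2918 to 4850 CPM. The litter of each embryo is not in the labels, so litter was not in the fit and its part in the results was not tested. Replicates are separate embryos by their labels, and p-values measure the spread between these 6 samples alone.

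The table of RefSeq promoter windows used here matched 6 of the 10 genes (Cldn5, Tie1, Tek, Emcn, Eng and Erg). The windows of Eng and Emcn, which were among the genes with the highest fold changes, and of Tek, which had the lowest, are shown as the 250 bases before the start site (RefSeq, GRCm38.p6). They are written 5′ to 3′ on the strand of the gene, with the ETS core GGAAG, on either strand and thus also as CTTCC, in capitals. The Eng window is at chr2:32646345-32646594 on the plus strand, the Emcn window at chr3:137340828-137341077 on the plus strand, and the Tek window at chr4:94739039-94739288 on the plus strand. The last 11 bases of the Emcn window lie in an exon of the GENCODE annotation.
Eng: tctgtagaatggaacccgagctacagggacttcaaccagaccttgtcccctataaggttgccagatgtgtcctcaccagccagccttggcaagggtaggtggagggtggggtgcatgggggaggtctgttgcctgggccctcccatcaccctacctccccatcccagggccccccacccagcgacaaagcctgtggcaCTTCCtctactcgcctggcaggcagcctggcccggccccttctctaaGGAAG
Emcn: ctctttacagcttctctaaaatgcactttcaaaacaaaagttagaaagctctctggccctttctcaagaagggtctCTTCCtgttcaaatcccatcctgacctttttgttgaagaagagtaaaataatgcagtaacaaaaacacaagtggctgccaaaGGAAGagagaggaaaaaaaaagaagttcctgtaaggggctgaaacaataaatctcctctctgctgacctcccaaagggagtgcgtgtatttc
Tek: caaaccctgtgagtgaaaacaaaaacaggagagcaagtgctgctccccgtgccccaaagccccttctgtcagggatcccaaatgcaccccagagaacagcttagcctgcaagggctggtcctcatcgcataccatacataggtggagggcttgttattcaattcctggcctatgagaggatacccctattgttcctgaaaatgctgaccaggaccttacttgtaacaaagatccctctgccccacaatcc
The ETS core stood at 2 places in the Eng window, at 2 in the Emcn window and at 0 in the Tek window. The Tie1 window held it at 6 places, but 212 of its 250 bases lie in a first exon of the GENCODE annotation and it is not shown. In all, 5 of the 8 windows of these genes held the core (Erg has 3 windows), beside 64.1% of 32851 windows of all genes, so the core is common in any window of this length. The forkhead motif TGTTTAC was in 0 of the 8 windows and in 3.17% of all windows, and a hypoxia response core, ACGTG or GCGTG, was in 2 of the 8 (1 of them the Emcn window) and in 38.6% of all. These are matches of letters on both strands in short windows, and they do not locate a binding site.

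Per length of exon, the highest of the 10 genes in the control cortex were junction genes and the lowest were Erg, Emcn and Sox17, beside a median of 4.6 CPM per kb over all genes. Cdh5 stood at 7.0 ± 1.98 CPM per kb (SD, n = 4) and Cldn5 at 6.17 ± 1.37, and Cdh5 exceeded Cldn5 in 2 of the 4 controls, so these levels did not differ beyond their spread. Pecam1 (4.15 ± 0.681), Eng (3.92 ± 0.965) and Esam (3.58 ± 0.756) followed, with Pecam1 above Eng in 2 of 4 controls and Eng above Esam in 3 of 4. The receptor genes Tie1 (3.18 ± 0.636) and Tek (2.76 ± 0.782) came next, Tie1 above Tek in each of the 6 libraries. The last were Erg (1.45 ± 0.243), Emcn (1.19 ± 0.435) and Sox17 (0.682 ± 0.232). Tek exceeded Erg and Emcn exceeded Sox17 in all 6 libraries, whereas Erg exceeded Emcn in 3 of 6. In the libraries labelled Foxp1cKO, Pecam1 stood at 5.72 and 7.33 CPM per kb, above Cldn5 (5.38 and 6.51), which it never exceeded in a control.

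**Figure D1:**
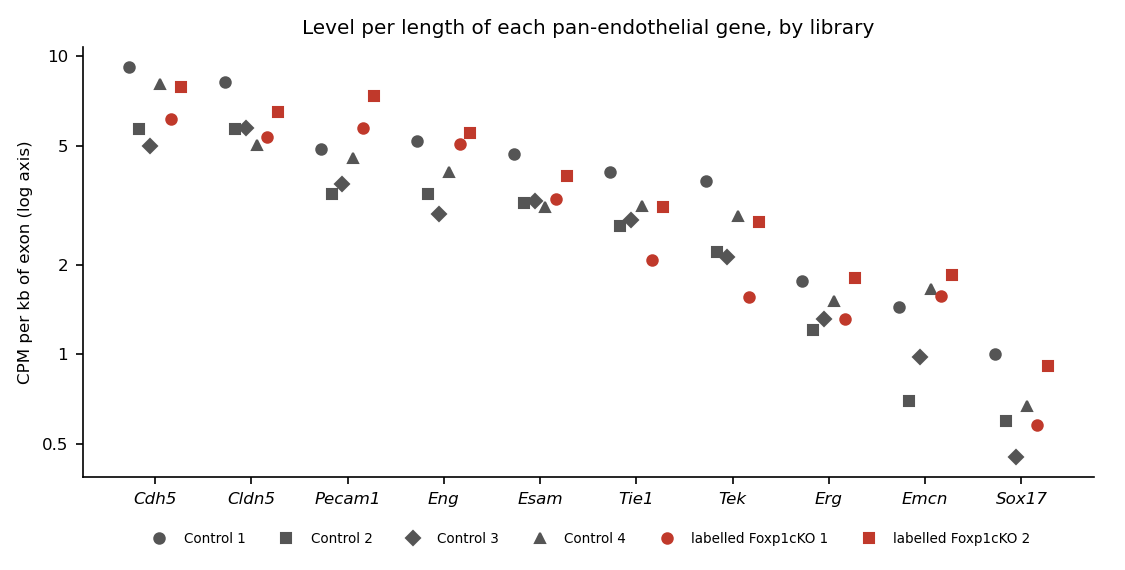
Level of each of the 10 pan-endothelial genes in CPM per kb of exon (log axis), 1 point for each library, with genes ordered by their control mean. Control means run from 7.0 for Cdh5 to 0.682 for Sox17, and only for Pecam1 do both libraries labelled Foxp1cKO (red) sit above all 4 controls.

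At these levels a gene had 139 to 3463 counts in a library, so the counting error of a single value was 1.7 to 8.48%. The spread between controls was larger, with a coefficient of variation of 16.4 to 36.5%. The median SD of log2 CPM among the controls was 0.323 for the 10 genes and 0.199 for all genes. The 95% intervals of the fold changes reached 0.40 to 0.823 to either side on the log2 scale. A difference smaller than the reach of its own interval does not pass even an unadjusted test with these 6 embryos. The adjusted p used for calls asks for larger differences. Pecam1, with a log2 fold change of 0.65 and an interval that left out 0, had an edgeR adjusted p of 0.251. The smallest difference that the adjusted test could detect was not computed.

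As a group, the 10 genes did not separate the genotypes. None passed an adjusted p of 0.05 in edgeR's quasi-likelihood test, where 26 of 17068 genes did (0.152%, all 26 higher). Only Pecam1 passed an unadjusted p of 0.05, which 13.0% of all genes did, and only Pecam1 passed DESeq2's adjusted p of 0.05, which 2.97% of all genes did. Pecam1 was also the 1 gene of 10 whose level in each library labelled Foxp1cKO exceeded every control, a pattern that 11.5% of all genes showed. None had both below all controls, against 13.1% of all genes. Of the 10 fold changes, 7 were positive and 3 negative, with a median of 0.068 beside -0.0044 over all genes. With 10 genes, each of these counts was 0 or 1.

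Summed over the 10 genes, the level was 172.0, 111.2, 109.6 and 141.5 CPM in controls 1 to 4, and 132.6 and 170.7 CPM in the libraries labelled Foxp1cKO 1 and 2. Control 1 was the highest library of all and controls 2 and 3 the lowest, and both libraries labelled Foxp1cKO fell inside the range of the controls. The means were 133.6 ± 29.5 (SD, n = 4) and 151.6 ± 27.0 CPM (SD, n = 2), a ratio of 1.14. Most of this difference came from Pecam1, whose means were 25.86 and 40.65 CPM. In a bulk sample, fewer endothelial cells and less RNA per endothelial cell cannot be told apart, and this holds for every level given here. With 4 libraries against 2, an exact two-sided permutation test of 1 value cannot go below p = 0.133, so the sum was not tested. Against single controls, the median difference of the 10 genes was -0.39 on the log2 scale for control 1, 0.28 for control 2, 0.36 for control 3 and 0.076 for control 4.

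**Figure D2:**
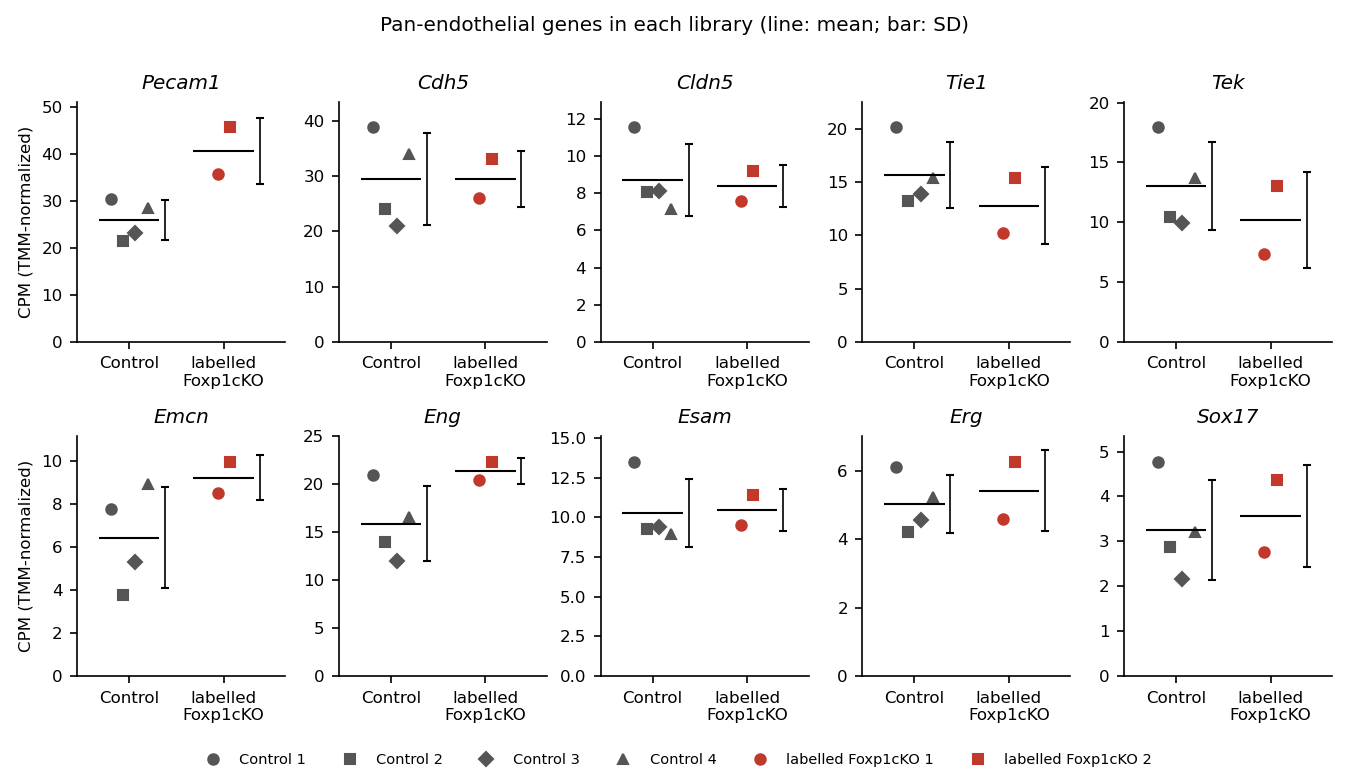
TMM-normalized CPM of each pan-endothelial gene in each library, with controls in grey and the libraries labelled Foxp1cKO in red (horizontal line, group mean; bar, SD; n = 4 and 2). Only for Pecam1 are both red points above all grey points, and in every panel the library labelled Foxp1cKO 1 is below the library labelled Foxp1cKO 2.

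Most libraries ranked in a similar way for each gene. Control 4 and the library labelled Foxp1cKO 1 did not. Control 4 was the highest control for 1 gene (Emcn) and the lowest control for 2 (Cldn5 and Esam). The library labelled Foxp1cKO 1 was the lowest of the 6 libraries for 2 genes (Tie1 and Tek), yet above all controls for Pecam1. Control 1 was the highest control for 9 of the 10 genes and the highest library for 6. The library labelled Foxp1cKO 2 was the highest for the other 4, namely Pecam1, Emcn, Eng and Erg, and exceeded the library labelled Foxp1cKO 1 for all 10. Both control 1 and the library labelled Foxp1cKO 2 exceeded controls 2 and 3 for all 10 genes. The 10 genes thus largely varied together from embryo to embryo within each group, although 1 group has only 2 embryos.

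Of the junction and adhesion genes, Pecam1 (ENSMUSG00000020717.19, chr11:106654217-106750628, minus strand, mm10), which encodes the adhesion molecule CD31, had the largest difference. Its level was 30.4, 21.4, 23.2 and 28.4 CPM in controls 1 to 4, and 35.6 and 45.6 CPM in the libraries labelled Foxp1cKO. The log2 fold change was 0.65 (SE 0.169, 95% interval 0.25 to 1.05), with an unadjusted p of 0.00615 and an adjusted p of 0.251 in edgeR. DESeq2 gave 0.66 with an adjusted p of 0.0281, and over all 13 alternatives the adjusted p ran from 0.0281 to 0.676. Leaving out each library in turn moved the fold change between 0.45 and 0.82.

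Cdh5 (ENSMUSG00000031871.9, chr8:104101625-104144511, plus strand) encodes VE-cadherin, the cadherin of the endothelial adherens junction. It had 38.8, 24.03, 21.03 and 33.9 CPM in controls 1 to 4, and 25.9 and 33.1 CPM in the libraries labelled Foxp1cKO. The groups overlapped fully and their means were equal within 0.0035 on the log2 scale (SE 0.257, 95% interval -0.60 to 0.61, edgeR adjusted p = 0.996). Cldn5 (ENSMUSG00000041378.1, chr16:18776847-18778262, plus strand, a single exon), the main claudin of brain endothelial tight junctions, had 11.6, 8.10, 8.14 and 7.15 CPM in the controls, and 7.61 and 9.21 CPM in the libraries labelled Foxp1cKO. Its log2 fold change was -0.053 (SE 0.221, 95% interval -0.57 to 0.47, edgeR adjusted p = 0.942). Esam (ENSMUSG00000001946.14, chr9:37528078-37538319, plus strand), an immunoglobulin-type adhesion molecule of the same junctions, had 13.5 CPM in control 1, 9.25, 9.40 and 8.94 CPM in controls 2 to 4, and 9.50 and 11.4 CPM in the libraries labelled Foxp1cKO. Control 1 stood alone, and the log2 fold change was 0.024 (SE 0.207, 95% interval -0.46 to 0.51, edgeR adjusted p = 0.976).

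The angiopoietin receptor genes had the lowest fold changes. Tie1 (ENSMUSG00000033191.14, chr4:118471191-118490061, minus strand), the orphan partner of the Tek receptor, had 20.1, 13.2, 13.9 and 15.4 CPM in controls 1 to 4, and 10.2 and 15.4 CPM in the libraries labelled Foxp1cKO. Tek (ENSMUSG00000006386.15, chr4:94739289-94874976, plus strand), which encodes the angiopoietin receptor Tie2, had 17.9, 10.4, 9.96 and 13.7 CPM in the controls, and 7.35 and 13.1 CPM in the libraries labelled Foxp1cKO. For both genes the library labelled Foxp1cKO 1 was the lowest of the 6, while the library labelled Foxp1cKO 2 lay within the controls. The log2 fold change was -0.29 for Tie1 (SE 0.232, 95% interval -0.84 to 0.26, edgeR adjusted p = 0.621). It was -0.35 for Tek (SE 0.317, 95% interval -1.10 to 0.40, edgeR adjusted p = 0.670). Without the library labelled Foxp1cKO 1, the differences were -0.026 for Tie1 and 0.0054 for Tek, and without the library labelled Foxp1cKO 2 they were -0.63 and -0.84.

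Eng (ENSMUSG00000026814.16, chr2:32646595-32682669, plus strand) encodes endoglin, a co-receptor for BMP9 and other TGF-beta family ligands. Its level was 21.02, 13.99, 11.96 and 16.55 CPM in controls 1 to 4, and 20.47 and 22.38 CPM in the libraries labelled Foxp1cKO. Both libraries were above controls 2, 3 and 4, and control 1 lay between them. The log2 fold change was 0.43 (SE 0.216, 95% interval -0.078 to 0.94, edgeR adjusted p = 0.441). An end of Eng shares 61 exon bases with Fpgs on the opposite strand, which is also in the table, and the strand setting of the counting is not stated. Emcn (ENSMUSG00000054690.17, chr3:137341067-137432185, plus strand) encodes endomucin, a sialomucin of the endothelial surface found mostly in veins and capillaries. It had 7.78, 3.77, 5.30 and 8.97 CPM in the controls, and 8.50 and 9.99 CPM in the libraries labelled Foxp1cKO. Control 4 lay between these and control 2 was the lowest, and Emcn had the largest spread among controls of the 10 genes (36.5%). Its log2 fold change was 0.52 (SE 0.334, 95% interval -0.27 to 1.31, edgeR adjusted p = 0.537).

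Neither transcription factor gene passed the test, and both overlapped between groups. Erg (ENSMUSG00000040732.18, chr16:95359169-95586593, minus strand), an ETS factor that maintains endothelial identity, had 6.1, 4.2, 4.54 and 5.23 CPM in controls 1 to 4, and 4.57 and 6.26 CPM in the libraries labelled Foxp1cKO. Its log2 fold change was 0.11 (SE 0.222, 95% interval -0.41 to 0.64, edgeR adjusted p = 0.865). Sox17 (ENSMUSG00000025902.13, chr1:4490931-4497354, minus strand), a SoxF factor of arterial endothelium, had 4.78, 2.86, 2.15 and 3.21 CPM in the controls, and 2.76 and 4.36 CPM in the libraries labelled Foxp1cKO. The values of both libraries labelled Foxp1cKO lay inside the range of the controls, and the log2 fold change was 0.14 (SE 0.348, 95% interval -0.69 to 0.96, edgeR adjusted p = 0.899). Sox17 shares 804 exon bases with Gm37587, a transcript on the opposite strand that is not among the genes analysed here.

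**Figure D3:**
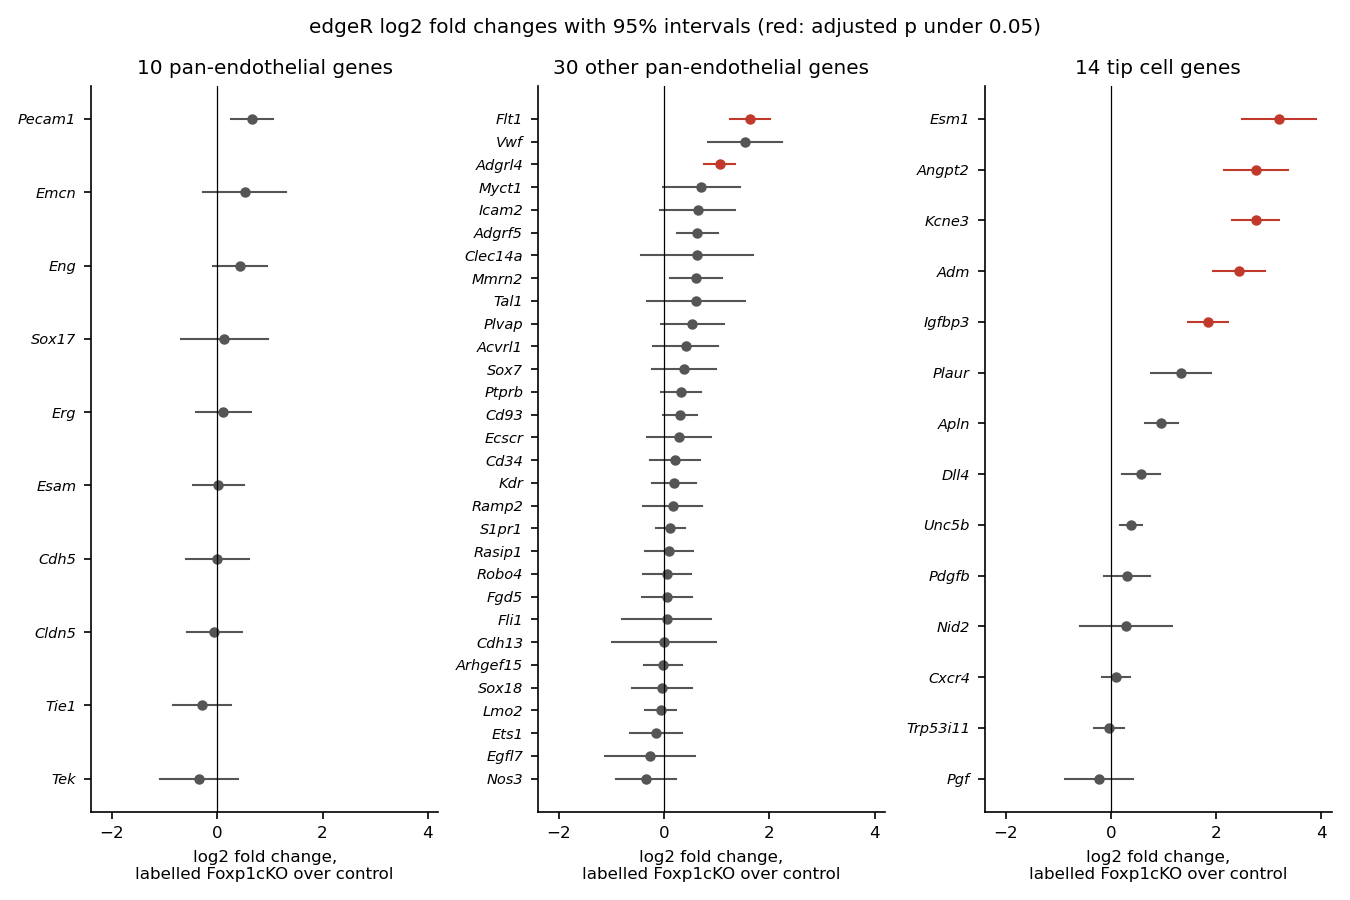
Log2 fold changes (libraries labelled Foxp1cKO over controls) from edgeR with 95% intervals, for the 10 pan-endothelial genes, 30 other pan-endothelial genes and 14 tip cell genes (red, adjusted p under 0.05). Among the 10 genes only the interval of Pecam1 (0.25 to 1.05) leaves out 0 and none is red, while Flt1 and Adgrl4 among the other pan-endothelial genes and 5 tip cell genes are red.

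Since the 10 genes largely rose and fell together from embryo to embryo, each was also expressed relative to the mean log2 CPM of the other 9 in the same library. This measure was added after the data were seen. On this scale the embryo-to-embryo differences that the genes share are removed, and a rise of 1 gene lowers the value of the others by construction. Differences of single genes stay: the SD of Cldn5 among the controls was 0.268 on this scale and 0.297 in log2 CPM. Pecam1 stood at 1.23, 1.39, 1.53 and 1.48 in controls 1 to 4, and at 2.02 and 1.96 in the libraries labelled Foxp1cKO. Eng stood at 0.635, 0.709, 0.467 and 0.616 in the controls, and at 1.13 and 0.814 in the libraries labelled Foxp1cKO. Both genes were above all controls in both libraries, by 0.58 and 0.36 on the log2 scale. Tie1 stood at 0.566, 0.618, 0.702 and 0.503 in the controls, and at 0.0168 and 0.213 in the libraries labelled Foxp1cKO. Tek stood at 0.381, 0.24, 0.174 and 0.313 in the controls, and at -0.508 and -0.0492 in the libraries labelled Foxp1cKO. These 2 receptor genes were below all controls in both libraries, by -0.48 and -0.56 on the log2 scale. Emcn was higher by 0.51 but overlapped the controls. The other 5 genes differed by -0.19 (Cldn5) to 0.021 (Sox17) and overlapped them too. Of the 10 genes, then, 2 were above and 2 below without overlap. For all genes the reference was the mean of all 10, a slightly different scale, on which 2.72% were above and 4.55% below. Both scales are built from these 10 genes, so the shares are a description and no test.

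**Figure D4:**
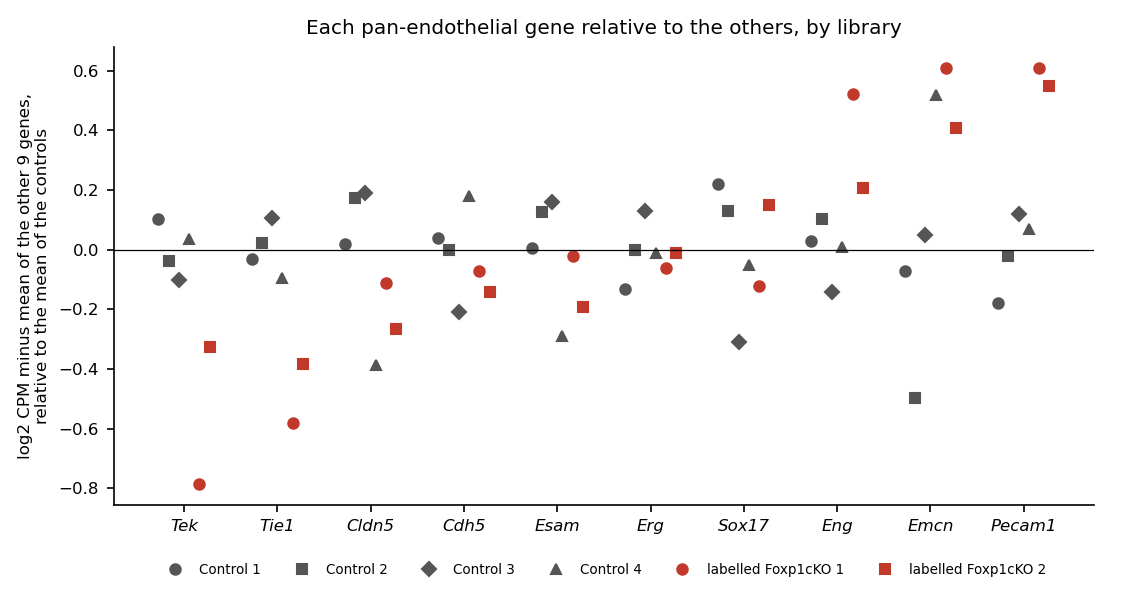
Log2 CPM of each pan-endothelial gene minus the mean of the other 9 in the same library, shown relative to the mean of the 4 controls (grey, controls; red, libraries labelled Foxp1cKO). Both red points lie below all grey points for Tek and Tie1 and above them for Eng and Pecam1, with mean differences of -0.56, -0.48, 0.36 and 0.58.

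Ratios of counts within a library need no normalization between libraries, and they gave part of this split. There were 0.784, 0.891, 1.10 and 0.838 Pecam1 counts for each Cdh5 count in controls 1 to 4, and 1.37 and 1.38 in the libraries labelled Foxp1cKO. The Pecam1 to Tie1 ratio was 1.66 ± 0.139 (SD, n = 4) in the controls, with a highest value of 1.84, and 3.49 and 2.97 in the libraries labelled Foxp1cKO, 1.94-fold higher. The Pecam1 to Tek ratio was 2.04 ± 0.262 in the controls, and 4.85 and 3.50 in the libraries labelled Foxp1cKO. Both of these ratios have Pecam1 as numerator and rise with it. Against Cdh5 instead, the receptor genes were less separated: Tek counts for each Cdh5 count were 0.404 to 0.474 in the controls, and 0.284 and 0.395 in the libraries labelled Foxp1cKO, below all controls. Tie1 counts for each Cdh5 count were 0.455 to 0.659 in the controls, and 0.394 and 0.465 in the libraries labelled Foxp1cKO, so that these overlapped. Eng counts for each Cdh5 count were 0.488 to 0.582 in the controls, and 0.789 and 0.677 in the libraries labelled Foxp1cKO. Emcn counts for each Cdh5 count were 0.157 to 0.264 in the controls, and 0.328 and 0.302 in the libraries labelled Foxp1cKO, above all controls, although Emcn overlapped on the scale relative to the other 9 genes. The Tek to Tie1 ratio overlapped between groups, with 0.822 ± 0.0833 Tek counts for each Tie1 count in the controls, and 0.720 and 0.849 in the libraries labelled Foxp1cKO. Library size does not enter these ratios, and at 4 against 2 libraries a separation of the groups has no p below 0.133 in an exact permutation test. The pairs followed no rule set beforehand. The share of all genes whose ratio to the same denominators separates the groups was not computed, so these separations are a description.

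Among 30 other genes of endothelial cells in general, 24 fold changes were positive and 6 negative, with a median of 0.25. Over all 17068 genes, 8407 were positive. Of the 30, 2 passed edgeR's threshold, beside 0.152% of all genes. Flt1, the gene of the Vegf receptor VEGFR1, had 18.1, 15.4, 12.5 and 17.4 CPM in controls 1 to 4, and 44.6 and 54.1 CPM in the libraries labelled Foxp1cKO. Its log2 fold change was 1.64 (SE 0.159, edgeR adjusted p = 0.0179). Adgrl4, an adhesion G protein-coupled receptor of endothelium, had 8.67 to 9.70 CPM in the controls, and 17.3 and 21.3 CPM in the libraries labelled Foxp1cKO. Its log2 fold change was 1.05 (SE 0.127, edgeR adjusted p = 0.0497). Both calls depended on the libraries in the fit. The edgeR adjusted p of Flt1 was 0.0706 without control 1, 0.101 without control 2, and 0.0820 and 0.192 without either library labelled Foxp1cKO, and that of Adgrl4 reached 0.407. With DESeq2, 4 of the 30 passed (2.97% of all genes), and 7 of the 30 were above all controls in both libraries (11.5% of all genes).

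Further genes of these 30, namely Kdr, Vwf, Adgrf5, Mmrn2, Myct1, Icam2, Acvrl1 and Nos3, are given here as chosen after their values were seen. Kdr, the gene of the main Vegf receptor VEGFR2, had 69.5, 47.7, 45.2 and 49.3 CPM in the controls, and 57.3 and 62.9 CPM in the libraries labelled Foxp1cKO, a log2 fold change of 0.18 (SE 0.177, edgeR adjusted p = 0.690). Flt1 counts for each Kdr count were 0.304 ± 0.0428 (SD, n = 4) in the controls, and 0.778 and 0.860 in the libraries labelled Foxp1cKO. Vwf, the von Willebrand factor gene, had 9.70 to 19.9 CPM in the controls, and 37.6 and 44.1 CPM in the libraries labelled Foxp1cKO, a log2 fold change of 1.53 (SE 0.296, edgeR adjusted p = 0.198, DESeq2 adjusted p = 0.000127). The endothelial receptor gene Adgrf5 and the matrix gene Mmrn2 had log2 fold changes of 0.63 and 0.60 (edgeR adjusted p = 0.251 and 0.323). Relative to the mean of the 10 genes, 8 of the 30 were above all controls in both libraries (Flt1, Vwf, Adgrl4, Myct1, Adgrf5, Mmrn2, Icam2 and Acvrl1) and Nos3 alone was below. On the same scale 2.72% of all genes were above and 4.55% below. S1pr1, the sphingosine-1-phosphate receptor gene and the highest of the 30 per length, had a log2 fold change of 0.12 (SE 0.119, edgeR adjusted p = 0.697).

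Tip cell genes gave the larger fold changes. Of 14, 12 had positive fold changes, with a median of 0.77, and 5 passed edgeR's threshold, all higher, beside 0.152% of all genes. This list, like the others, was chosen with earlier results of these data known. The share of called genes in it is therefore a description and no test. Esm1, a secreted proteoglycan of tip cells, had 0.917 to 1.69 CPM in the controls, and 12.8 and 10.9 CPM in the libraries labelled Foxp1cKO, a log2 fold change of 3.20 (SE 0.300, edgeR adjusted p = 0.0175). Angpt2, the gene of the Tek ligand angiopoietin-2, had 1.35 to 2.44 CPM in the controls, and 14.3 and 10.7 CPM in the libraries labelled Foxp1cKO. Its log2 fold change was 2.76 (SE 0.255, edgeR adjusted p = 0.0171). Angpt2 thus rose where the fold change of its receptor gene Tek was -0.35, and Angpt2 counts for each Tek count were 0.149 ± 0.0475 (SD, n = 4) in the controls, and 1.94 and 0.819 in the libraries labelled Foxp1cKO. Kcne3 (2.75), Adm (2.43) and Igfbp3 (1.84), a potassium channel subunit, a vasoactive peptide and a binding protein of insulin-like growth factors, were the other 3. Some genes of this list, such as Adm and Igfbp3, are made by other cell types too. Each of the 5 calls was lost when some single library was left out, with adjusted p up to 0.162, while the fold changes stayed positive.

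Of 13 genes of transport and barrier in brain endothelium in the table, none passed edgeR's threshold (0.152% of all genes). An unadjusted p of 0.05 in edgeR was passed by 2 in each direction (13.0% of all genes in either direction). DESeq2 called 1 (2.97% of all genes). Their median log2 fold change was 0.023. Their sum was 379.7 to 511.9 CPM in the controls. It was 538.2 and 657.8 CPM in the libraries labelled Foxp1cKO, above all controls, with a ratio of 1.29. This ratio rested on 1 gene, Slc2a1. The mean sum was 462.2 CPM in the controls and 598.0 CPM in the libraries labelled Foxp1cKO, where Slc2a1 alone had means of 93.6 and 231.8 CPM. Slc2a1, the gene of the glucose transporter GLUT1, which neural progenitors also express, had 79.0 to 107 CPM in the controls, and 180 and 283 CPM in the libraries labelled Foxp1cKO (log2 fold change 1.31, SE 0.185, edgeR adjusted p = 0.0758).

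Among cells that lie around vessels, the summed level of mural cell markers separated the groups. Their 12 genes in the table summed to 203.4 to 251.1 CPM in the controls, and to 311.5 and 323.9 CPM in the libraries labelled Foxp1cKO, a ratio of 1.36. Of the 12, 11 had positive fold changes, as had 8407 of all 17068 genes, and 6 were above all controls in both libraries (11.5% of all genes). An unadjusted p of 0.05 in edgeR was passed by 5 (13.0% of all genes). DESeq2 called 2 (2.97% of all genes) and edgeR called 0 (0.152%). Rgs5, a pericyte gene, had 31.3, 36.3, 30.1 and 28.9 CPM in the controls, and 49.3 and 47.3 CPM in the libraries labelled Foxp1cKO (log2 fold change 0.61, SE 0.106, edgeR adjusted p = 0.161). Notch3, the mural Notch receptor gene, which other cells of the cortex also express, had a log2 fold change of 0.35 (SE 0.119, edgeR adjusted p = 0.316). Notch3 made up 135.0 CPM of the mean mural sum of 233.0 CPM in the controls.

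The summed level of markers of tissue on the surface of the cortex largely moved with the 10 genes across embryos. The 10 meningeal fibroblast genes, all in the table, summed to 602.6, 260.5, 129.5 and 450.8 CPM in controls 1 to 4, a 4.65-fold range, and to 187.9 and 407.2 CPM in the libraries labelled Foxp1cKO. Control 1 had the highest sum and control 3 the lowest for both the meningeal and the pan-endothelial genes, and the library labelled Foxp1cKO 1 was below the library labelled Foxp1cKO 2 for both. Not every meningeal gene had this order, as Zic1 was lowest in control 1 (34.0 CPM) and highest in control 2 (86.2 CPM). None of the meningeal genes passed an adjusted p of 0.05 in edgeR or DESeq2 or an unadjusted p of 0.05 in edgeR. With the mean log2 level of the meningeal list as a covariate in edgeR, a fit added after the data were seen, 0 of the 10 pan-endothelial genes were called. Their fold changes moved little: Pecam1 0.65 (adjusted p = 0.106), Eng 0.45 (0.161), Tek -0.37 (0.330) and Tie1 -0.31 (0.377). The covariate itself differed by only 0.0317 between the group means, beside an SD of 0.977 among the controls. A covariate so alike in both groups can hardly move a fold change, so this outcome does not show the part of meningeal tissue. The 12 macrophage genes summed to 31.0 to 61.8 CPM in the controls, and to 57.6 and 53.8 CPM in the libraries labelled Foxp1cKO, with 0 called by edgeR, 1 by DESeq2 and 3 at an unadjusted p under 0.05. The red cell genes (10 in the table) summed to 1473, 1115, 1167 and 3615 CPM in controls 1 to 4, and to 3909 and 4200 CPM in the libraries labelled Foxp1cKO, so that control 4 was close to the latter. Of these 10 genes, 0 were called by edgeR, 1 by DESeq2 and 3 at an unadjusted p under 0.05. Beside the counts of each of these lists, the shares of all genes were 0.152% in edgeR, 2.97% in DESeq2 and 13.0% at an unadjusted p in edgeR. Hbb-y made up 1201 CPM of the mean red cell sum of 1843 CPM in the controls, and Hbb-bs was highest in control 1 (109 CPM). The sum of the 10 pan-endothelial genes had another order than the red cell sum, with control 1 as its highest library. Single genes differed in this. Emcn was highest in control 4 (8.97 CPM) and the libraries labelled Foxp1cKO (8.50 and 9.99 CPM). The part of meningeal, blood and mural tissue in the dissected samples in these results was not tested, and the covariate fit could not decide the meningeal part.

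**Figure D5:**
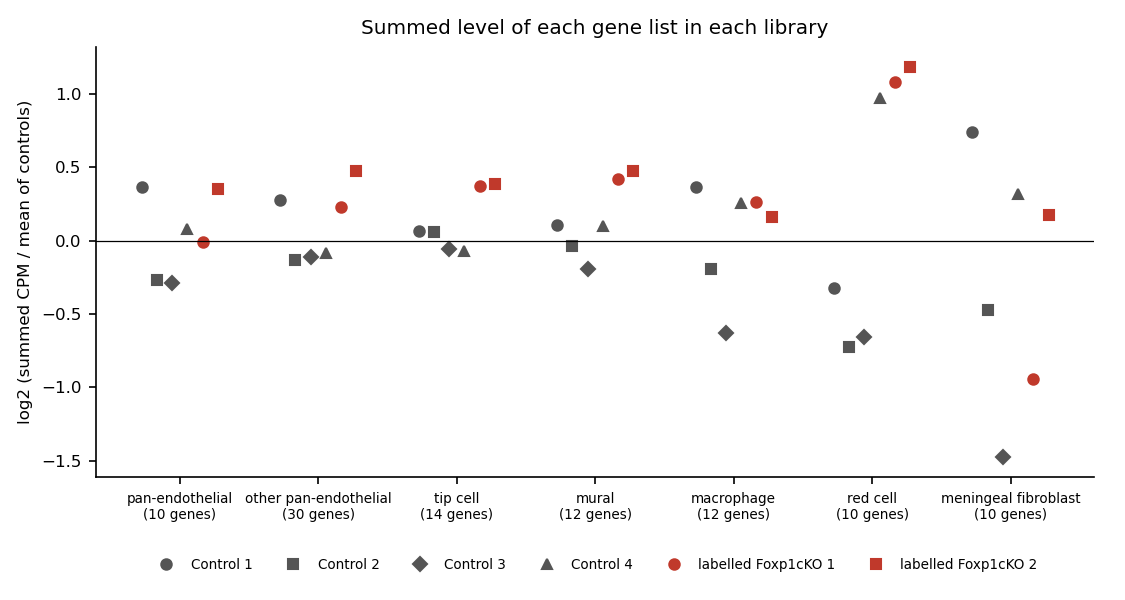
Summed CPM of each gene list in each library, as the log2 ratio to the mean of the 4 controls (grey, controls; red, libraries labelled Foxp1cKO; number of genes under each list). The red points lie above all grey points for the tip cell, mural and red cell sums, and lie among them for the 10 pan-endothelial genes (132.6 and 170.7 against 109.6 to 172.0 CPM) and the meningeal genes.

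The genes whose log2 CPM over the 6 libraries was most like the mean of the 10 genes were looked up among 13845 genes with a mean of at least 1 CPM, as a description with Pearson's r. The 6 points share depth, dissection and group, so no p is given. The closest were Cgnl1 (r = 0.998), Arap3 (0.993), Pmepa1 (0.993), Ramp2 (0.992), Anxa3 (0.987), Slc16a12 (0.987), Foxd1 (0.985), Fkbp10 (0.982), Nod1 (0.979) and Gjb6 (0.978). Cgnl1, a junction protein gene, had 17.1, 9.70, 9.55 and 12.9 CPM in controls 1 to 4, and 11.6 and 16.0 CPM in the libraries labelled Foxp1cKO, and was also the closest gene by deviations from the group means (r = 0.999). Ramp2, a subunit of the adrenomedullin receptor of endothelium, had 8.96, 5.54, 5.79 and 7.09 CPM in the controls, and 6.72 and 8.61 CPM in the libraries labelled Foxp1cKO. Foxd1 is 1 of the meningeal genes. The median r was 0.710 for the 30 other pan-endothelial genes and 0.893 for the 8 meningeal genes expressed at this level, beside 0.0107 over all genes. Single values ran from 0.0266 to 0.992 in the first list and from -0.114 to 0.985 in the second.

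The 10 genes differed in how closely each followed the mean of the other 9 over the 6 libraries. Erg (r = 0.967), Sox17 (0.931) and Cdh5 (0.915) followed it most closely, then Esam (0.803) and Eng (0.779). Tek (0.670), Cldn5 (0.644), Tie1 (0.630), Emcn (0.626) and Pecam1 (0.620) followed it least. With the group means subtracted, the values were 0.947 for Pecam1, 0.948 for Tie1 and 0.966 for Tek, so within groups these 3 genes varied with the others. Cldn5 (0.691) and Emcn (0.662) were then the lowest.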

How the data were processed

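Lateral cortex from 6 female embryos was profiled by stranded, paired-end RNA-Seq. The authors aligned reads to mm10 with STAR, counted them per gene with HTSeq 0.9.1 in union mode, removed genes with low expression, and deposited unnormalized counts of 17068 genes without pooling replicates. The authors also deposited a variance-stabilized matrix (DESeq2 1.30.1) on a log2-like scale. It was used here in 1 alternative and equalled DESeq2's blind transformation of the counts within 1.1e-10. Whether HTSeq counted by strand is not given in the sources used here.

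Groups came from the sample labels. Genes were tested in R 4.3.3 with edgeR 4.0.16 (quasi-likelihood, TMM, group as the only term, all genes, Benjamini-Hochberg, threshold 0.05) after being tested on simulated data with 200 changed genes. Litter, a term in the authors' model, was not used. CPM were TMM-scaled, and log2 CPM used a prior count of 2. A floor of 3 counts equals 0.0381 to 0.0596 CPM. It covers counting error only, as reads from PCR are not independent molecules. Positions and exon lengths came from GENCODE M21, another annotation release than the authors', in which 17047 identifiers were found, and promoters from RefSeq.

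The 10 genes and the other lists were chosen with earlier results of these data known. Named genes were these 10, Foxp1, the 3 highest genes per length and any called gene of each list, and the 10 genes most like the 10. Others are marked where they appear. Alternatives were DESeq2 1.42.0, limma 3.58.1 on the variance-stabilized values, 2 other scalings, a filter on low counts, the replicate block, and leaving out each library. The meningeal covariate and the level relative to the other genes were added after seeing the data. The pairs of genes in the count ratios followed no rule set beforehand.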

Additional observations from a re-analysis of the deposited data

Results flagged for a closer look

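Among the 4 controls, 77 sets of values were checked for a library whose gap to the others exceeds Dixon's 95% critical value for 4 samples. Of these, 8 were beyond it, where chance gives about 1 in 20 for a single set. The sets are not independent, as sums contain single genes that were also checked, so this count is no test. Of the 10 genes, Esam was flagged, with 13.5 CPM in control 1 against 8.94 to 9.40 CPM in the other controls. Control 1 was also apart for Kdr (69.5 CPM against 45.2 to 49.3) and for the sum of the 30 other pan-endothelial genes (548 CPM against 412 to 427). Control 4 was apart for the red cell genes, with a sum of 3620 CPM against 1110 to 1470 CPM. Within that list its level was 2340 CPM against 754 to 935 CPM for Hbb-y and 559 CPM against 80.2 to 112 CPM for Hba-x, which encode embryonic globins. Control 4 was also apart for Lmx1a, a cortical hem gene (2.79 CPM against 0.535 to 0.710). Control 3 was apart for Gad2, a gene of GABAergic neurons (250 CPM against 57.9 to 83.6).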

How the results depend on the processing

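The count of called genes among the 10 was 0 in edgeR and limma under every setting run, and 1 (Pecam1) with DESeq2. Their summed ratio ran from 0.992 to 1.28 as each library was left out, and their median log2 fold change changed sign with the replicate block (-0.073) and without control 3 (-0.031) or the library labelled Foxp1cKO 2 (-0.17). Over all genes, DESeq2 called 507, the meningeal covariate 43 and the replicate block 0 (edgeR, with 3027 at an unadjusted p under 0.05), beside 26 in the reported fit, and leaving out each library gave 2 (without control 2) to 96 (without control 4). For the other pan-endothelial genes the count of 2 became 4 with DESeq2, 1 with limma and 0 with the replicate block (6 at an unadjusted p under 0.05), and ran from 0 to 2 over left-out libraries. Replicate numbers mark different embryos, and same-numbered libraries' deviations correlated at -0.198 and 0.0157, so the numbers were not read as pairs.

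Fold changes near 0 changed sign. Relative to the other pan-endothelial genes of the 10, values were -0.11 for Cdh5, -0.11 for Esam, -0.031 for Erg and -0.0050 for S1pr1, and with the replicate block -0.059 for Cdh5, -0.10 for Esam and -0.088 for Sox17. Leaving out each library gave -0.20 to 0.17 for Cdh5, -0.22 to 0.092 for Cldn5, -0.84 to 0.0054 for Tek, -0.13 to 0.16 for Esam, -0.15 to 0.32 for Erg and -0.25 to 0.42 for Sox17. Of the values of the 10 genes under the alternatives, 120 kept their direction and their side of the threshold, 19 changed sign and 1 gained the threshold. Of those of other named genes, 181 kept both, 34 lost the threshold, 6 gained it and 1 changed sign. The causes were not tested. With a library labelled Foxp1cKO left out, the lone one was assumed to vary like the controls.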

Other observations

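Markers of other regions of the telencephalon also differed between embryos of 1 group. The 8 ventral telencephalon genes summed to 848.4 CPM in control 3 and to 256.0 to 387.0 CPM in the other controls, beside 574.3 and 420.6 CPM in the libraries labelled Foxp1cKO, with 0 called by edgeR, 0 by DESeq2 and 0 at an unadjusted p under 0.05. Their median r with the mean of the 10 pan-endothelial genes was -0.642 over the 6 libraries, which share dissection and depth. The sum of the 3 choroid plexus and hem genes in the table was 0.919 to 10.99 CPM in the controls, and 5.98 and 1.40 CPM in the libraries labelled Foxp1cKO. The radial glia and neuronal genes had median log2 fold changes of 0.063 and -0.076, with 0 called by edgeR or DESeq2 in either list. At an unadjusted p under 0.05 in edgeR there were 2 of 10 radial glia genes and 0 of 8 neuronal genes. Over all genes the shares were 0.152% in edgeR, 2.97% in DESeq2 and 13.0% at an unadjusted p in edgeR.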
